A study of Gallus gallus with 30 samples.

Results

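Breast muscle (Pectoralis major) of a meat-type and an egg-type chicken line was compared at 6 weeks (6 w) after hatch. The broilers were male commercial Arbor Acres birds, which the labels give as breed AA, and the layers were male White Leghorn birds. Housing did not differ by line, and the broilers received the layers' feed. Neither the hour of sampling nor the time since the last meal is stated in the sources used here. Total RNA of 5 males of a line was mixed to 1 pool, and the pool was hybridised to 3 Affymetrix Chicken Genome Arrays. The comparison at 6 w therefore rests on 6 arrays of 2 pools, out of 30 arrays of 10 pools over 5 ages in the whole series. Repeat arrays of 1 pool share their RNA. Their SD measures the error of labelling, hybridisation and scanning, and nothing in the 6 arrays measures how birds of a line differ from each other.

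Pectoralis major of the chicken is the main flight muscle and consists almost wholly of fast glycolytic fibres. In such muscle, feeding and insulin hold back the FoxO transcription factors, while fasting and glucocorticoids release them. FoxO factors and the glucocorticoid receptor then raise genes that break down muscle protein and that turn the fibre from glucose to fat as fuel. Muscle size at a given age also depends on satellite cells, the stem cells that add nuclei to growing fibres, and on the make-up of the sarcomere, the contractile unit.

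All values are log2 signals, and a difference is the mean of the broiler arrays minus the mean of the layer arrays. With 1 pool of each line no p-value was given for 6 w alone. A probe set was called when it differed at least 2-fold, which is 1 on the log2 scale, and when the 3 arrays of one pool lay wholly above the 3 of the other. Genes were ordered by the difference divided by the pooled SD of the arrays plus its median over all probe sets, 0.17. One further measure used all ages, a term fitted with limma to the 10 pool means that asks whether the line difference at 6 w departs from the mean of that at the other 4 ages.

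Medians of the 6 arrays lay between 4.12 and 4.20. Arrays of the same pool had R² values of 95.4% to 98.5% across probe sets, and arrays of different pools 93.3% to 97.3%. Layer array 3 stood apart from layer arrays 1 and 2, with R² values of 96.5% and 95.4% against 98.5% between those. Its weight in each result is given where it moved a call. Skeletal muscle markers were at the top of the scale in both pools. ACTA1, skeletal alpha-actin, was at 13.77 in broilers and 13.79 in layers, TNNT3, fast troponin T, at 13.34 and 13.35, and TNNI2, fast troponin I, at 13.51 and 13.43. The muscle label was thus borne out by its defining markers, and the slow myosin heavy chain MYH7 was near the floor of the scale, at 2.60 and 2.54.

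At 6 w 196 of 38439 probe sets were called higher in broilers (0.51%) and 191 were called lower (0.497%). Taken as 13009 genes with 1 probe set each, 85 were higher (0.653%) and 101 lower (0.776%). The median difference over all genes was -0.01, and 48.5% of the genes lay above 0. Arrays of both pools were apart, at any fold, in 23.0% of the genes. In the plot of difference against level the called probe sets spread over dim and bright levels in both directions.

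**Figure D1:**
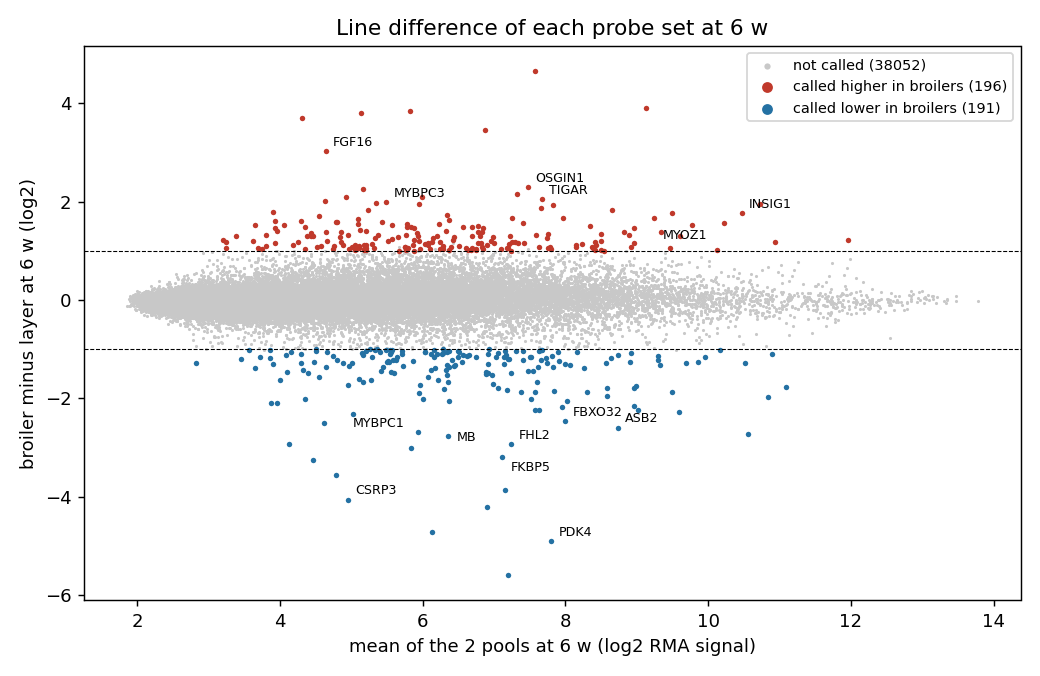
Each point is a probe set at 6 w, with the mean of both pools (log2 RMA signal) on the x axis and broiler minus layer (log2) on the y axis. Red points are the 196 probe sets called higher and blue points the 191 called lower in broilers, dashed lines mark 2-fold, and PDK4, CSRP3 and FKBP5 lie lowest among the genes marked by name.

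Genes that muscle raises in fasting or under glucocorticoids were lower in broilers as a group. Of 27 measured genes of this list, 8 were called lower and 1 higher, where 0.776% and 0.653% of all genes were called. This list, like the others here, was written with earlier results of these data known. It holds PDK4, which the study names, so the count is no independent evidence. The median of the list was -0.45 and 21 of the 27 lay below 0. PDK4, pyruvate dehydrogenase kinase 4, which closes the entry of glucose carbon into the citrate cycle, was at 5.73, 5.22 and 5.10 on the broiler arrays and at 10.24, 10.05 and 10.47 on the layer arrays. The difference of -4.90 is 29.9-fold, with a pooled SD of 0.28. FKBP5, a chaperone of the glucocorticoid receptor and one of its classical targets, was at 5.604, 5.50 and 5.43 in broilers and 8.67, 8.82 and 8.61 in layers, 9.11-fold lower. All 3 of its probe sets were called, with differences from -4.72 to -3.19.

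The FoxO factors FOXO3 and FOXO1 and their best known ubiquitin ligase target were in the group. FOXO3 was at 7.52, 7.54 and 7.76 in broilers and 9.60, 9.64 and 9.45 in layers, a difference of -1.95, and its other 2 probe sets lay at -0.89 and -0.61 without a call. FOXO1 differed by -1.21 with a pooled SD of 0.12. FBXO32, atrogin-1, which marks muscle protein for breakdown, was at 6.35, 7.01 and 6.91 in broilers and 9.31, 9.54 and 8.84 in layers, 5.54-fold lower. No array of one pool reached the range of the other in any of these genes, which a call requires. TRIM63, MuRF1, the second ubiquitin ligase of muscle wasting, differed by only -0.45 and was not called, although its arrays were apart.

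SESN1, sestrin 1, a brake on growth signalling through mTOR, was at 9.84, 9.97 and 9.75 in broilers and 11.81, 11.74 and 11.94 in layers. KLF9, a transcription factor raised by glucocorticoids, was at 7.60, 7.66 and 7.79 against 9.26, 9.60 and 9.56. Their differences were -1.97 and -1.79, each over 10 times the pooled SD. UCP3, a mitochondrial carrier of muscle that follows fatty acid supply, was less even. It was at 7.73, 8.05 and 8.41 in broilers and 10.23, 10.55 and 8.80 in layers, so that layer array 3 came close to the broiler arrays. The call of UCP3 did not need that array, and the difference of -1.80 had a pooled SD of 0.70.

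Other members of the list were not called at the probe set used for the gene. KLF15, a glucocorticoid target that controls amino acid breakdown, lay at -0.94, just short of the 2-fold line, and GLUL, glutamine synthetase, at -0.86 with overlapping arrays. A dimmer second probe set of GLUL was called, at -1.27. DDIT4 (-0.06), ANGPTL4 (-0.05) and IRS2 (-0.06) were dim in both pools and did not separate them. NR3C1, the glucocorticoid receptor, was at 3.51 and 3.48. SLC38A2, a carrier that brings neutral amino acids into the cell, ran the other way, with 7.83, 7.97 and 7.98 in broilers and 6.72, 6.85 and 6.71 in layers. FOXO1, SLC38A2 and the members of this paragraph were picked after their values were seen, to show the whole range of the list.

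Within its own line the broiler pool at 6 w was the low point of most called genes of this group. In each of the 8 called lower genes except UCP3, which was lower at 1 d, the broiler mean at 6 w was below the broiler means of the other 4 ages. These 8 genes were chosen for a broiler value below that of layers at 6 w. That choice favours a low point there, so this is a description only. PDK4 went from 12.16 at 1 d to 9.90, 7.72 and 5.35 at 2 w, 4 w and 6 w in broilers and stood at 11.05 at 8 w. In layers the same means were 12.18, 8.95, 9.67, 10.25 and 9.11. FKBP5 ran from 9.72 through 8.73, 7.35 and 5.51 to 8.07 in broilers, and from 9.93 through 8.68, 8.47 and 8.70 to 7.04 in layers. FBXO32 in broilers was at 10.36, 9.59, 8.71, 6.76 and 9.57 over the same ages. The line difference thus had opposite signs at 6 w and 8 w in PDK4 (-4.90 and 1.95), FKBP5 (-3.19 and 1.03) and FBXO32 (-2.47 and 1.31), and all 6 of these differences were called.

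**Figure D2:**
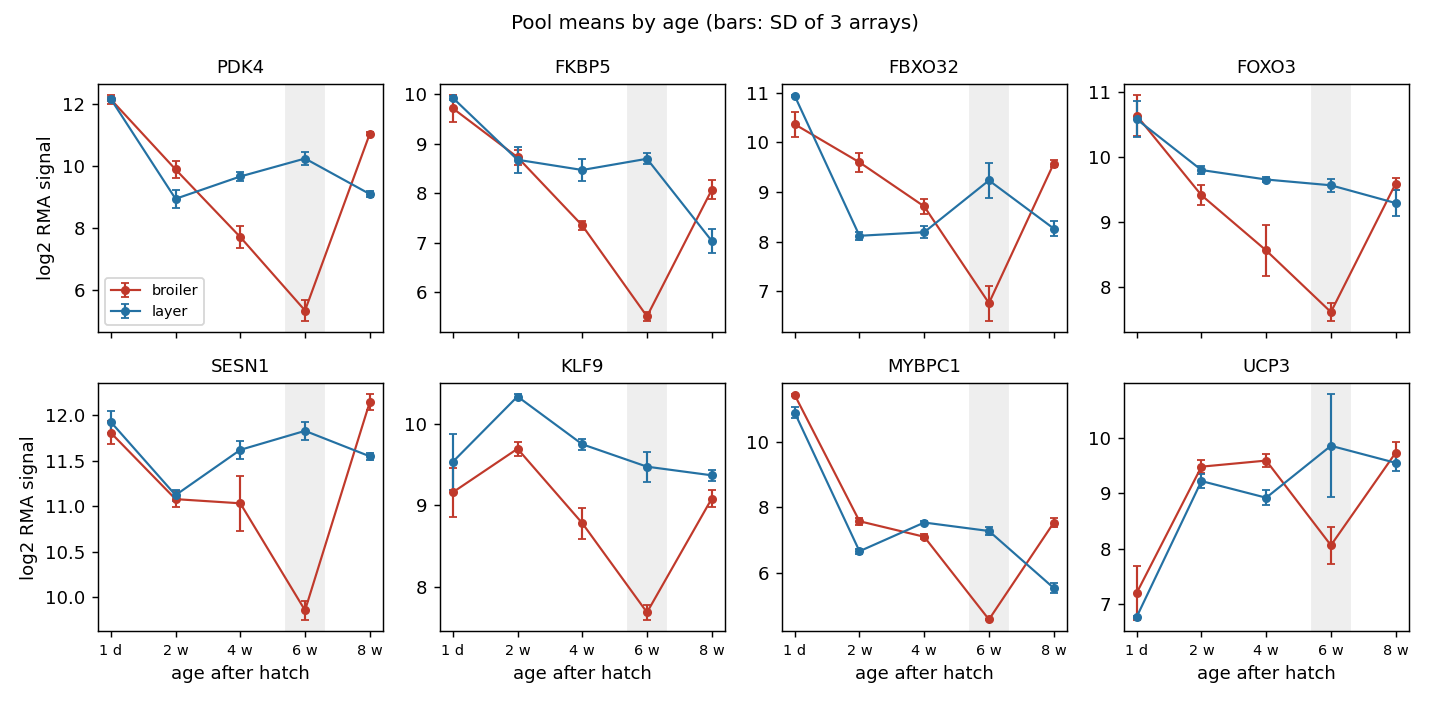
Pool means of 8 genes in log2 RMA signal (y axes, each on its own range) at 5 ages, with broilers in red, layers in blue and the SD of 3 arrays as bars. The shaded age is 6 w, where the broiler pool is lowest of its line in each of the genes but UCP3, which was lower at 1 d, and PDK4 reaches 5.35. All 8 genes were called lower in broilers at 6 w, which favours a low broiler value at that age.

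Over the whole list the broiler arrays at 6 w were all below those of both 4 w and 8 w in 9 of 27 genes, against 3.81% of all genes. The 9 include genes called lower at 6 w, such as PDK4 and FKBP5, for which that choice favours a low broiler value. The layer pool at 6 w lay above its own 4 w and 8 w arrays in 4 genes and below them in 4, where 5.05% and 3.9% of all genes did so. The median of the list in line difference was -0.21 at 4 w, -0.45 at 6 w and 0.07 at 8 w. At 8 w 5 of the 27 genes were called higher in broilers and 1 lower, where 0.388% and 0.492% of all probe sets were called. The list takes 1 probe set per gene, so these shares over all probe sets are not a like measure. At 6 w the shares over genes (0.653% and 0.776%) were larger than those over probe sets (0.51% and 0.497%). With 1 pool per line and age, a state of these 5 birds on the day of sampling and a state of the line at that age cannot be told apart.

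The limma term for 6 w against the other ages called 0 of 38439 probe sets in either direction at an adjusted p under 0.05 (0%), with 2851 probe sets at an unadjusted p under 0.05. These were 1181 with a positive and 1670 with a negative term. With no effect at all 1922 probe sets are expected at that level, and without array number 3 the count was 1615. With no intensity trend the count at the unadjusted level was 2850, and with robust eBayes it was 2862, both with 0 after adjustment. The fit has 3 residual degrees of freedom. The smallest adjusted p over all probe sets was 0.124, and among genes with a symbol it was 0.169, for ASB2 and UCP3. For ASB2 the term was -2.43 ± 0.27 (SE) and for UCP3 -2.18 ± 0.24. PDK4 had a term of -5.14 ± 1.17 (adjusted p = 0.626 from limma), and its line difference at the other ages ran from -1.96 to 1.95. Of the probe sets called at 6 w, 97 of the 196 higher and 88 of the 191 lower reached an unadjusted p under 0.05 in the same direction. The term contains the 6 w difference by which these probe sets were chosen, so these counts are a description and no support.

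ASB2, the substrate part of a ubiquitin ligase that lowers muscle mass when raised in mouse muscle, was at 7.32, 7.38 and 7.60 in broilers and 10.06, 10.12 and 9.90 in layers. Its difference of -2.60 at 6 w stood against -0.31, -0.33, 0.26 and -0.28 at 1 d, 2 w, 4 w and 8 w. Of the 5 ages only 6 w had a call for ASB2, and the broiler arrays of 6 w lay below those of 4 w and 8 w. PNPLA2, the lipase that starts the breakdown of stored triglyceride, was at 7.88, 7.90 and 7.91 in broilers and 10.13, 10.35 and 9.92 in layers, with -0.94 as the median over its 3 probe sets and a call for 1 of them. G0S2, an inhibitor of that lipase, differed by -1.11.

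Genes of the sarcomere and its stretch sensors also held large differences. CSRP3, muscle LIM protein, which senses stretch at the Z-disc, was at 2.94, 3.06 and 2.78 in broilers, near the floor of the scale, and at 6.92, 6.87 and 7.18 in layers, 16.7-fold lower. FHL2, another LIM protein that joins signalling to the sarcomere, was at 5.93, 5.67 and 5.73 against 8.56, 8.77 and 8.81. The pools were wide apart in both genes, yet their histories differed. FHL2 was lower in broilers by 3.03 to 3.45 at 2 w, 4 w and 8 w as well, so that its 6 w difference of -2.94 was one of several like it. CSRP3 differed by -3.24 at 4 w and by only -0.06 at 8 w, and here the 6 w arrays of the layer pool lay above those of both neighbouring ages.

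Of 20 measured slow fibre and cardiac genes 3 were called lower (MYBPC1, MYOZ2 and FABP3) and 1 higher (MYBPC3), with a list median of 0.09. The shares over all genes were 0.776% lower and 0.653% higher. MB, myoglobin, the oxygen store of oxidative fibres, was at 4.95, 5.13 and 4.84 in broilers and 7.79, 7.75 and 7.67 in layers, 6.80-fold lower. It is not in that list but in a list of slow-type genes taken from the study, of which 4 were measured. MYBPC1, slow myosin-binding protein C, was at 4.57, 4.61 and 4.57 against 7.15, 7.39 and 7.28, and 2 of its 4 probe sets were called. MYOZ2, a Z-disc protein of slow and cardiac fibres, differed by -1.23, and FABP3, a fatty acid carrier, by -1.16. FABP3 spread from 8.71 to 10.12 among the broiler arrays, and without the first of them its difference was -0.83 and the call was lost. MYBPC3, the cardiac form of myosin-binding protein C, was the top-ranked gene on the other side, at 6.54, 6.51 and 6.39 in broilers and 4.48, 4.50 and 4.50 in layers. It was higher in broilers by 1.33 to 2.28 at 2 w, 4 w and 8 w too, and 2 of its 3 probe sets were called at 6 w, the other lying at -0.04. The others of those 4, MYH7B (0.14), MYL3 (-0.50) and TNNI1 (-0.01), were not called at 6 w. The probe sets used for TNNI1 (3.045 in broilers and 3.053 in layers) and MYL3 (2.68 and 3.17) were near the floor of the scale. Their small differences therefore say little about these genes. The study also tables MBP, given below with the nerve markers, and a myosin L2B light chain as slow-type genes, and neither is among the 4.

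Of 19 measured fast fibre genes 4 were called higher and 0 lower, with a list median of 0.17 and 16 genes above 0. Among all genes 0.653% were called higher. MYH1B and MYH1C are fast myosin heavy chains of 1 gene cluster whose sequences are close to identical, so probes of one can read the RNA of another. MYH1B was at 10.46, 10.41 and 10.26 in broilers and 8.61, 8.74 and 8.47 in layers, and its 3 probe sets differed by 1.77, 3.89 and 4.65. MYH1C differed by 1.38, while MYH1D and MYH1E were level at 0.00 and 0.08. Which of these chains was higher is uncertain for that reason. MYH1B and MYH1C differed more at 8 w than at 6 w, by 2.88 and 3.41. Their pool means were highest at 1 d in each line. At that age MYH1B was at 11.63 in broilers and 11.23 in layers, and MYH1C at 11.81 and 11.07. MYOZ1, a Z-disc protein of fast fibres, was at 10.43, 11.01 and 11.58 against 9.90, 10.01 and 8.40, and MYLPF, the fast regulatory light chain, at 12.23, 12.76 and 12.70 against 11.63, 12.04 and 10.37. The second probe set of MYOZ1 lay at -0.07 without a call. Layer array 3 was the lowest in both genes, and without it the difference of MYLPF was 0.73 and its call was lost. ACTA1, TNNT3, TNNI2, MYL1 and TPM1 differed by less than 0.1, TNNC2, fast troponin C, by 0.17 and MYBPC2, fast myosin-binding protein C, by 0.50, none of them called. In TNNC2 and MYBPC2 layer array 3 was again the lowest, and their differences lean on it. TNNC2 was at 12.97, 13.05 and 13.12 in broilers and 12.94, 13.00 and 12.68 in layers. MYBPC2 was at 11.83, 12.25 and 12.40 against 12.06, 12.22 and 10.67.

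**Figure D3:**
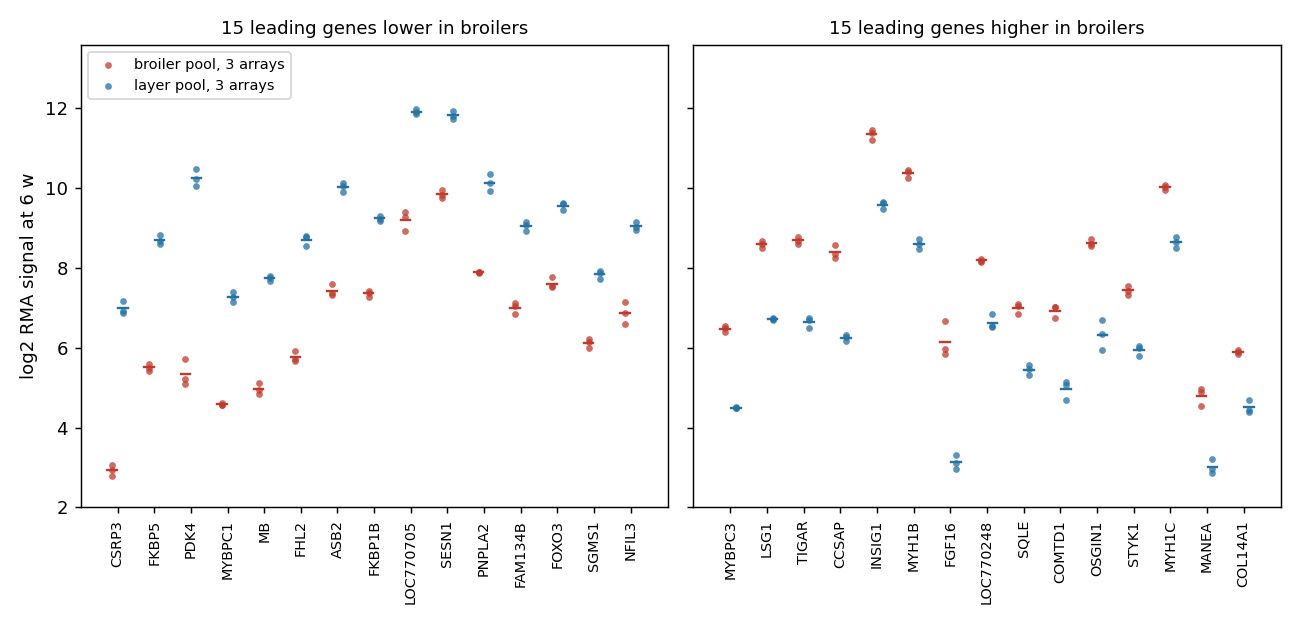
Log2 RMA signal at 6 w (y axis) of the 15 leading genes lower (left) and the 15 higher (right) in broilers, each array as a point, red for the broiler and blue for the layer pool, with bars at the means. All 30 genes were called, and a call requires the points of the pools to be apart. Values run from 2.94 against 6.92 for the first arrays of CSRP3 to 5.95 against 4.38 for those of COL14A1.

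Sterol synthesis genes were higher in broilers as a group. Of 20 measured genes 4 were called higher and 0 lower, 18 lay above 0, and the median was 0.60 where that of all genes was -0.01. Among all genes 0.653% were called higher. The list was written with earlier results known and holds INSIG1 and HSD17B7, which the study names, so it is no independent evidence either. INSIG1, which holds the sterol sensor in the endoplasmic reticulum, was at 11.45, 11.22 and 11.40 in broilers and 9.48, 9.64 and 9.65 in layers, and all 3 of its probe sets were called. SQLE, squalene epoxidase, was at 7.11, 7.05 and 6.84 against 5.32, 5.56 and 5.47. DHCR7, which makes cholesterol in the last step, differed by 1.14 in one probe set and 0.05 in the other, and NSDHL, a demethylating enzyme of the same route, by 1.03. Arrays were apart in 11 of the 20 genes, among them MSMO1 (0.90), ACAT2 (0.90) and HSD17B7 (0.89) just under 2-fold. The other probe set of HSD17B7 was called higher, at 1.19. NSDHL was the weakest call, with differences of 0.83 to 0.92 when 1 array was left out in 3 of the 6 ways. CYP51A1 (0.08), MVK (-0.02) and SCAP (-0.01) were level.

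The sterol difference was shared with 4 w and was smaller at the other ages. Its list medians were 0.13, 0.12, 0.45, 0.60 and 0.09 from 1 d to 8 w, and the counts of called genes were 3 at 4 w, 4 at 6 w and 0 at 1 d, 2 w and 8 w. The broiler pool at 6 w lay above its own 4 w and 8 w arrays in 5 of the 20 genes, against 4.4% of all genes. Genes that make fatty acids and triglycerides did not share the shift, with a median of 0.06 over 19 genes and 1 called lower, AGPAT2, an enzyme of triglyceride assembly.

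Among metabolic genes, TIGAR, a phosphatase that slows glycolysis, was at 8.61, 8.68 and 8.78 in broilers and 6.70, 6.74 and 6.49 in layers. OXCT1, which lets muscle burn ketone bodies, was at 9.60, 9.62 and 9.44 against 8.16, 8.49 and 8.07, with a call for 3 of its 4 probe sets. At the other ages the difference of TIGAR was at least 1.44 and that of OXCT1 ran from 0.78 to 1.54. SLC2A1, the basal glucose carrier, was called at 1.03 and lost its call without the first broiler array or without layer array 1 or 3. PFKFB3, which speeds glycolysis, was called lower at -1.36 in 1 of its 4 probe sets, with a median of -0.81 over them. Apart from these the energy pathways were level. Medians were 0.08 over 33 genes of glycolysis and glycogen, 0.02 over 18 of the citrate cycle and -0.02 over 50 of the respiratory chain, of which 1, NDUFS3, was called lower (-1.54) as at 3 of the other ages by over 1.

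Of the satellite cell and growth genes named by the study, a list chosen on these samples and so no independent evidence, 2 of 9 measured were called higher and 3 lower. The shares over all genes were 0.653% and 0.776%. FGF16, a fibroblast growth factor, was at 5.83, 5.98 and 6.66 in broilers and 3.32, 2.97 and 3.10 in layers, 8.16-fold higher, after differences of 1.29 to 1.52 at 2 w, 4 w and 8 w. MUSTN1, a nuclear protein of muscle growth and repair, was at 10.28, 10.22 and 10.25 against 9.11, 8.93 and 8.84. FGF1, an acidic fibroblast growth factor, was called lower at -1.46 beside CSRP3 and FHL2, but its other probe sets lay at -0.20 and -0.02. HS6ST2, a heparan sulfate sulfotransferase, was not called at the probe set used (0.26), but its other probe set was called lower at -1.09. The 5 measured ubiquitin genes of the study had a median of -0.85. Of these, 1 was called higher and 1 lower, against 0.653% and 0.776% of all genes. UCHL1, a deubiquitinase, was called higher at 1.37 in 1 of its 3 probe sets, with a median of 0.08 over them. FBXO30, a ubiquitin ligase, was lower at -1.17, with a call for 3 of its 4 probe sets. Without the first broiler array the difference of FBXO30 was -0.87 and its call was lost. FBXO22 was level at the probe set used (0.01), while 1 of its 6 probe sets was called lower, at -1.16. The ligases HERC4 (-0.90) and RLIM (-0.85) fell short of a call with arrays apart, and lay below 0 at every other age too. Medians over all their probe sets were -0.12 and -0.68. The 32 proteasome genes (median 0.05) and the 32 autophagy genes (median 0.04) had no called member. With 0.653% of all genes called higher and 0.776% lower, lists of this size can hold no call, so this does not set them apart from other genes. In the autophagy list 19 genes lay above 0 and 13 below, with differences from -0.98 to 0.45. Its members CTSV (-0.98) and ULK1 (-0.89) fell short of a call with arrays apart. FAM134B, an autophagy receptor outside that list, was called lower at -2.06, with both of its probe sets called.

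Broader growth lists held no call at this age. The IGF pathway (40 genes, median -0.08), the myogenic regulators (26 genes, median 0.09) and the cytosolic ribosomal proteins (61 genes, median -0.05) had 0 called members each. Among all genes 0.653% were called higher and 0.776% lower. At those shares lists of this size can hold no call, so the counts of 0 do not set them apart from other genes. The ribosomal list was small in size but one-sided, with differences from -0.32 to 0.10. Of its 61 genes 52 lay below 0 and 9 above, where 48.5% of all genes lay above 0. The log2 of its summed signals was 17.89, 17.929 and 17.905 on the broiler arrays and 17.99, 18.037 and 17.903 on the layer arrays. In that sum layer array 3 lay within the broiler range, and only layer arrays 1 and 2 lay above it. MSTN, myostatin, the main inhibitor of muscle growth, was at 8.70, 8.66 and 8.86 in broilers and 7.75, 8.14 and 7.99 in layers. Its arrays were apart, but the difference of 0.78 fell short of the call.

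Genes of dividing cells were level between the lines at 6 w. The 50 proliferation genes had a median line difference of -0.03 at 6 w, after 0.40, 0.30 and 0.39 at 1 d, 2 w and 4 w and before 0.10 at 8 w. The 6 w arrays of the layer pool lay above all 4 w and 8 w layer arrays in 29 of 50 genes, where 5.05% of all genes did so, and the count was 33 without layer array 3. The broiler pool did so in 11 genes, where 4.4% of all genes did. MKI67, a marker of cycling cells, was at 7.10, 7.03 and 7.28 in layers at 6 w, against 5.95, 5.77 and 5.66 at 4 w and 5.04, 5.72 and 5.69 at 8 w. CDK1, the kinase that drives mitosis, was at 7.66, 7.79 and 7.79 in layers at 6 w and at 6.62 and 6.12 on average at 4 w and 8 w. In broilers CDK1 means were 7.30, 7.66 and 6.73 at the same ages. MKI67 and CDK1 were chosen after their values were seen. NDE1, which the study tables with genes of satellite cell proliferation and hypertrophy, was higher in broilers by 0.93 without a call.

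**Figure D4:**
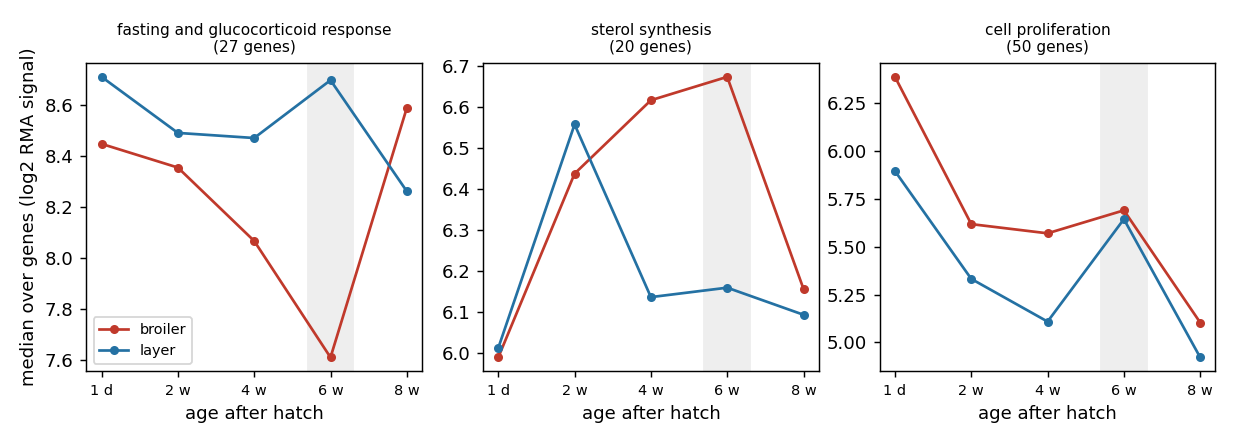
Median log2 RMA signal over the genes of 3 lists (y axes, each on its own range) at 5 ages in broilers (red) and layers (blue), with 6 w shaded. At 6 w the fasting list is at its lowest in broilers (7.61 against 8.70 in layers), the sterol list is 6.67 against 6.16, and the proliferation list is 5.69 against 5.64.

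Markers of other cell types in the tissue were checked beside these results. In whole muscle, fewer cells of a type and less RNA per cell cannot be told apart. Schwann cell and nerve markers were lower in broilers, with 2 of 13 called, 10 of 13 below 0 and a median of -0.37. Among all genes 0.776% were called lower. Both called genes, MBP and UGT8, are in the gene tables of the study, chosen on these samples, so the count is no independent evidence. MBP, myelin basic protein, was at 6.80, 6.73 and 6.38 in broilers and 8.57, 8.55 and 8.42 in layers. UGT8, which makes myelin lipid, was at 4.92, 4.91 and 4.75 against 6.15, 6.38 and 6.51. Of the 3 probe sets of MBP 1 was called, and their median was -0.74. The list had medians of -0.25, -0.34 and -0.20 at 2 w, 4 w and 8 w, so that 6 w was not alone.

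Adipocyte markers had 3 of 17 called lower and 1 higher, against 0.776% and 0.653% of all genes, with a median of -0.10. Their summed level, taken as the log2 of the summed signals, was 11.004 to 11.066 on the broiler arrays and 11.471 to 11.873 on the layer arrays. The called lower genes were PNPLA2, AGPAT2 and G0S2, all of triglyceride turnover, while the defining markers ADIPOQ (0.20) and PLIN1 (-0.02) were not called and FABP4 was higher by 1.10, a call lost without broiler array 3 or layer array 1. Broiler arrays at 6 w were below those of 4 w and 8 w in 7 of the 17 genes, against 3.81% of all genes. Immune markers had a median of -0.24 over 26 genes with 21 below 0, and C1QB was the only call (-1.03, and -0.59 in its other probe set), lost in 3 of the 6 ways of leaving out an array. Endothelial markers (median -0.005 over 20 genes), fibroblast markers (-0.11 over 15), red cell markers (0.05 over 9) and markers of liver, skin and cartilage had no called member. Smooth muscle markers had a median of 0.39 over 9 genes and no call. Their summed level was 11.08, 11.28 and 11.45 on the broiler arrays and 11.06, 11.36 and 10.50 on the layer arrays, so that only layer array 3 stood low. The part of these cell types in the results above was not tested.

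**Figure D5:**
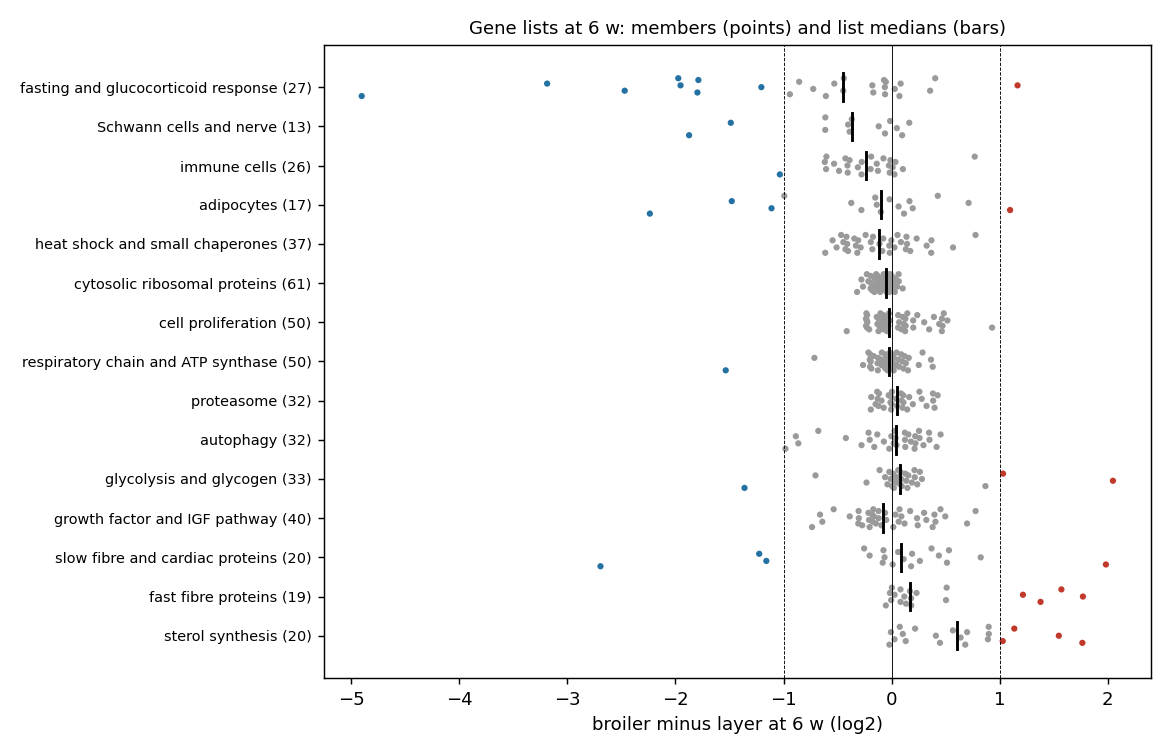
Broiler minus layer at 6 w (log2, x axis) for the genes of 15 lists, with the number measured in brackets, called genes in red (higher) or blue (lower), others in grey, and list medians as black bars. The fasting list has 8 blue points to the left of -1 and the sterol list 4 red points to the right of 1, with medians of -0.45 and 0.60.

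Smaller groups had at most a few calls, where 0.653% of all genes were called higher and 0.776% lower. NFIL3, a clock-linked repressor, was lower by -2.18 and lower by over 1.3 at every other age, and BHLHE40, a clock repressor, was called higher at 1.31 in 1 of its 4 probe sets, with a median of 0.36 over them. SMYD1, a methyltransferase of sarcomere assembly, was at 8.94, 9.10 and 9.08 in broilers and 10.31, 10.53 and 10.14 in layers, with both probe sets called. CHRNG, the fetal subunit of the acetylcholine receptor, was lower by -1.05, and its call was lost without the second layer array. COL14A1, a fibril-associated collagen, and CCN2, a matrix growth factor, were higher by 1.40 and 1.08, but only 2 of the 6 probe sets of COL14A1 were called and the call of CCN2 was lost without broiler array 3 or layer array 3. OSGIN1, an oxidative stress response gene, was higher by 2.29, with 8.72, 8.60 and 8.54 against 6.71, 6.35 and 5.94. Among interferon genes MX1, an antiviral GTPase, was the only call, at -1.13. Heat shock genes, with 24 of 37 below 0, and unfolded protein response genes had no call.

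The line difference of the probe sets called at 6 w mostly had the same sign at the neighbouring ages. At 4 w 90.8% of the higher and 86.4% of the lower probe sets kept their direction, with medians of 0.69 and -0.65, and at 8 w 81.6% and 68.1% did, with medians of 0.41 and -0.50. A call in the same direction, which needs 2-fold, was made at no other age for 96 of the 196 higher and 96 of the 191 lower probe sets. The same call was made at 4 w for 69 higher and 49 lower probe sets and at 8 w for 54 and 52, where 0.492%, 0.549%, 0.388% and 0.492% of all probe sets were called in that direction. Opposite calls at 8 w were made for 0 of the higher and 15 of the lower probe sets. These 15 belong to PDK4, FKBP5, FBXO32, MYBPC1, MYOZ2, GLUL, ZBTB32, KLHL38, PLA2G15, SLC27A1 and a probe set with no symbol. In the called lower set the broiler arrays at 6 w lay below all of 4 w and 8 w in 99 probe sets (51.8%, against 2.82% of all), and the layer arrays lay above theirs in 41 (21.5%, against 4.03%). A set chosen for a low broiler value at 6 w is bound to be enriched in the first of these, so the shares are descriptions only. In the called higher set the broiler arrays lay above their neighbours in 69 (35.2%, against 3.04% of all) and the layer arrays below theirs in 28 (14.3%, against 3.17%). These shares too are descriptions only.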

How the data were processed

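Arrays of the Pectoralis major pools were scanned and normalized by the authors with RMA, and they deposited log2 values per probe set. MAS5 present calls of the authors were not used here. The sources used here state no version for either. Of 38535 probe sets 96 controls were left out. The platform annotation, with symbols updated through a RefSeq table of assembly GRCg7b, named 27168 probe sets with 1 symbol, while 177 carried several and 11094 carried no symbol, and 26853 were found in that table. For 7334 of 13009 genes with several probe sets the one with the highest mean over the 6 arrays was used. Arrays have no sequencing depth, and their number, from 1 pool per line and age, limits the precision.

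Calls needed a 2-fold difference and arrays of the pools that did not overlap. Means of the 10 pools were modelled in limma 3.58.1 (R 4.3.3) by age, line and a term for broilers at 6 w, with an intensity trend, and p-values were adjusted by Benjamini-Hochberg over the whole table. In simulated data with 38439 probe sets this fit found 82 of 100 shifts of 2 and 98 of 100 shifts of -4, with 6 false calls. In simulated arrays of 38439 probe sets the call rule for 6 w found 100 of 100 probe sets raised by 1.5 and 100 of 100 lowered by 2.5 on the log2 scale, with 33 false calls. For the limma fit, shifts were added to probe sets drawn at random, with the residual spread of a fit of age and line. Its recovery cannot be carried over to genes whose line difference varies widely between ages, such as PDK4 (SE 1.17) and FKBP5 (SE 0.64). For such genes a lack of a call does not show that 6 w was like the other ages. For the call rule, shifts were added to noise from the pooled SD of the repeat arrays at 6 w. That noise holds no spread between pools or birds. A rule for naming picked the 15 highest and 15 lowest genes by rank and up to 6 called members of each of 41 lists. Where a list had no call, its 2 members with the largest difference were picked. Genes in the gene tables of the study were picked as well. Not all genes so picked are named in the text above. Members of the lists were matched by symbol, and by synonym only where it is another name of the same gene. The study's genes and the lists were chosen with earlier results of these data known. Members named outside that rule, among them FOXO1, SLC38A2, TRIM63, MSMO1, MYH1D and ADIPOQ, were added with their values known. Alternatives covered arrays left out, scaling, dim probe sets, the call rule and the ages of the fit.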

Additional observations from a re-analysis of the deposited data

Results flagged for a closer look

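A few genes named above were called one way at 6 w and the opposite way at another age. PDK4 was at -4.90 at 6 w and 1.95 at 8 w, FKBP5 at -3.19 and 1.03, and MYBPC1 at -2.69 and 1.99. FBXO32 had a difference of -2.47 at 6 w against 1.48 at 2 w and 1.31 at 8 w. For MYOZ2 the 6 w difference was -1.23, while 2 w gave 1.499 and 8 w gave 1.87. In each of these calls the 3 arrays of one pool lay wholly above the 3 of the other, which is part of the call rule. The change from 6 w to 8 w itself was not tested, because each age holds 1 pool of each line. The limma term that sets 6 w against the mean of the other ages gave adjusted p-values of 0.626 for PDK4, FKBP5, MYBPC1 and FBXO32 and 0.681 for MYOZ2.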

How the results depend on the processing

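Calls at 6 w compare 1 pool with 1 pool, so that no setting measures the spread between birds. The counts of 196 higher and 191 lower probe sets became 831 and 654 at 1.5-fold, 37 and 57 at 3-fold, and 85 and 101 with 1 probe set per gene. With arrays left out the higher count ran from 156 to 338 and the lower count from 180 to 290. It was 338 higher without the first arrays of both pools (173 shared with the main count) and 290 lower without the third (168 shared). Without the third layer array it was 157 higher and 251 lower. Median centring, quantile normalization, the filter on dim probe sets, fold alone and the rule of 3 pooled SDs kept both counts within 1.5 times. The limma count of 0 higher and 0 lower ran from 0 to 1 higher with an age or an array number left out. The 1 was a probe set with no gene symbol, without the pools of 1 d. The share at an unadjusted p under 0.05 ran from 4.2% (1615 of 38439) without array number 3 to 10.8% (4150 of 38439) without array number 1. Of 38439 probe sets 1922 are expected with no effect, so the excess was lost without array number 3. With dim probe sets left out the count was 752 of 10797, where 540 are expected. No alternative reversed a called gene. Of the 113 genes picked by the rule for naming, 40 moved by over 1 pooled SD with the median over all probe sets. With array number 1, 2 or 3 left out, 3, 2 and 16 moved so far. Among the 113, 62 were called, and 13 lost their call when 1 of the 6 arrays was left out. Of the 13, 6 lost it without layer array 3 (AOX1, SLC2A1, MYLPF, BF2, GSTT1 and CCN2). With single arrays left out or quantile normalization the fasting list had 8 to 9 genes called lower and the sterol list 3 to 4 called higher. These list settings, and leaving out layer array 3 for single genes and for the proliferation list, were chosen after seeing the data. Array signal near the floor of the scale limits folds of dim genes such as CSRP3 in broilers. No paired analysis was possible because the arrays of a number are repeats of 1 RNA pool and were averaged before the only test, so that pool means carry no number.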
